A study of Mus musculus with 6 samples.

Results

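The genes of drug and xenobiotic metabolism were examined in mouse intestinal stem cells sorted by their Lgr5-EGFP signal, by RNA sequencing of Klf5-KO-labelled libraries against control libraries. They were chosen by name and level. A gene was taken where its symbol placed it in cytochrome P450 families 1 to 4 (Cyp1 to Cyp4), the UDP-glucuronosyltransferases (Ugt), the glutathione S-transferases (Gst), the sulfotransferases (Sult), the carboxylesterases (Ces) or family 1 of the aldo-keto reductases (Akr1). Symbols containing -ps were left out, and a mean of at least 0.5 CPM over the 6 libraries was required. CPM is the normalised read count, the reads of a gene scaled to a common library size. Of 53379 genes in the files, 180 carried such a symbol and 87 reached that level. They were 29 P450 genes of 82 with a fitting symbol, 12 of 21 Ugt, 21 of 23 Gst, 6 of 21 Sult, 9 of 17 Ces and 10 of 16 Akr1 genes. All 87 were annotated as protein-coding. The level was read from the same libraries that are compared below. Ces1b, Cyp4a32 and Cyp2w1 averaged under 0.5 CPM in the Klf5-KO-labelled libraries, and Cyp2c70 and Cyp1a1 in the controls, so these 5 genes passed through 1 group only. The member nearest to the limit was Cyp4a32 at a mean of 0.548 CPM, and the nearest gene outside it was Ces2b at 0.468 CPM.

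These enzymes work in sequence on drugs, dietary chemicals, bile acids, steroids and fatty acids. P450s, carboxylesterases and aldo-keto reductases oxidise, hydrolyse or reduce a compound, and the transferases then join it to glucuronic acid, glutathione or sulfate, so that it can be pumped out of the cell. The liver is the main site of this metabolism, and in the small intestine the absorptive enterocytes are known for it. Many of the genes lie in clusters of close copies and are controlled by nuclear receptors and the aryl hydrocarbon receptor.

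The 3 Klf5-KO-labelled libraries came from C57BL/6 mice that carried Lgr5-EGFP-IRES-CreERT2, Rosa-tdTomato and Klf5fl/fl, and the 3 control libraries from C57BL/6 mice with Lgr5-EGFP-IRES-CreERT2 and Rosa-tdTomato alone. Both groups therefore carry the same Cre, EGFP and tdTomato alleles, and the floxed Klf5 alleles are what sets the first group apart. Both received 1 mg of tamoxifen in 0.1 mL on each of 5 days, which activates the Cre enzyme made from the Lgr5 locus, the gene of a crypt stem cell receptor. Deletion of Klf5, a Kruppel-like transcription factor, is thus started in Lgr5-expressing cells. Crypt cells of the proximal small intestine were sorted for the brightest EGFP. The labels describe adult mice, give neither age nor time after tamoxifen, and do not tell whether replicates came from different animals. By Xist and Y-linked counts each group held 1 male and 2 female libraries, so each came from at least 2 animals. The p-values measure the spread between libraries, which may be technical in part.

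The libraries held 61563625 to 77666540 counts. Klf5 itself went against the labels, with 879.9, 918 and 877 CPM in the Klf5-KO-labelled libraries, against 480.3, 512 and 546 CPM in the controls. Whole-gene sums cannot tell which exons were read, so each direction given here is that of the labelled libraries. Control replicate 3 stood apart, with a summed level of 15 Paneth cell markers of 22424 CPM, against 1876 and 2353 CPM in the other controls. The same sum was 10544 to 12988 CPM in the Klf5-KO-labelled libraries, and no Paneth marker was called. Stem cell markers were present in all libraries, with Lgr5 at 81.2 to 96.8 CPM in the Klf5-KO-labelled libraries and 128 to 163 CPM in the controls. Of the 15 stem cell markers 10 were lower and 1 was higher. Of 13 tuft cell markers tested, 9 were higher and none was lower, with a summed level of 166 to 294 CPM in the Klf5-KO-labelled libraries and 112 to 142 CPM in controls. Of 15 enteroendocrine markers tested, 12 were lower and none was higher (97 to 104 CPM in the Klf5-KO-labelled libraries and 170.1 to 329 CPM in controls), and of 11 goblet cell markers 5 were lower and none was higher (1233 to 1576 CPM in the Klf5-KO-labelled libraries and 2449 to 2721 CPM in controls). Of 25 enterocyte markers, 12 were higher and 1 was lower, and their summed level was 6805, 4600.4 and 5569 CPM in the Klf5-KO-labelled libraries, against 3526, 3310.0 and 3733 CPM in controls. None of the 25 was under 1 CPM in all libraries. Of 10 hepatocyte markers, 7 were under 1 CPM in every library, albumin among them, and Cps1, which the gut epithelium also makes, held 99.3% of their sum. The part that such shifts have in the results was not tested. In bulk libraries, fewer cells of a type and less RNA per cell cannot be told apart.

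Of the 87 enzyme genes, 33 were called higher in the Klf5-KO-labelled libraries and 10 lower, taking an adjusted p under 0.05 by edgeR's quasi-likelihood test as the threshold, and 44 were not called. This is 49.4% of them, beside 25.8% of all 19339 genes tested, of which 13.3% were higher and 12.5% lower. Among protein-coding genes that averaged 0.5 CPM or more, the share called was 28.3%. Without the 5 genes that passed through 1 group only, 32 of 82 were higher and 7 were lower. The median log2 fold change was 0.21 over the 87 genes and -0.01 over all tested genes. A change of at least 2-fold was called upward in 23 genes and downward in 7, beside 1099 and 1144 of all 19339 genes tested. Among the 82 genes that reached the level in both groups, these counts were 22 and 4. The libraries of the 2 groups did not overlap in 47 of the 87 genes, beside 43.2% of all genes tested, and among the 43 called genes the exception was Ces2c.

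**Figure D1:**
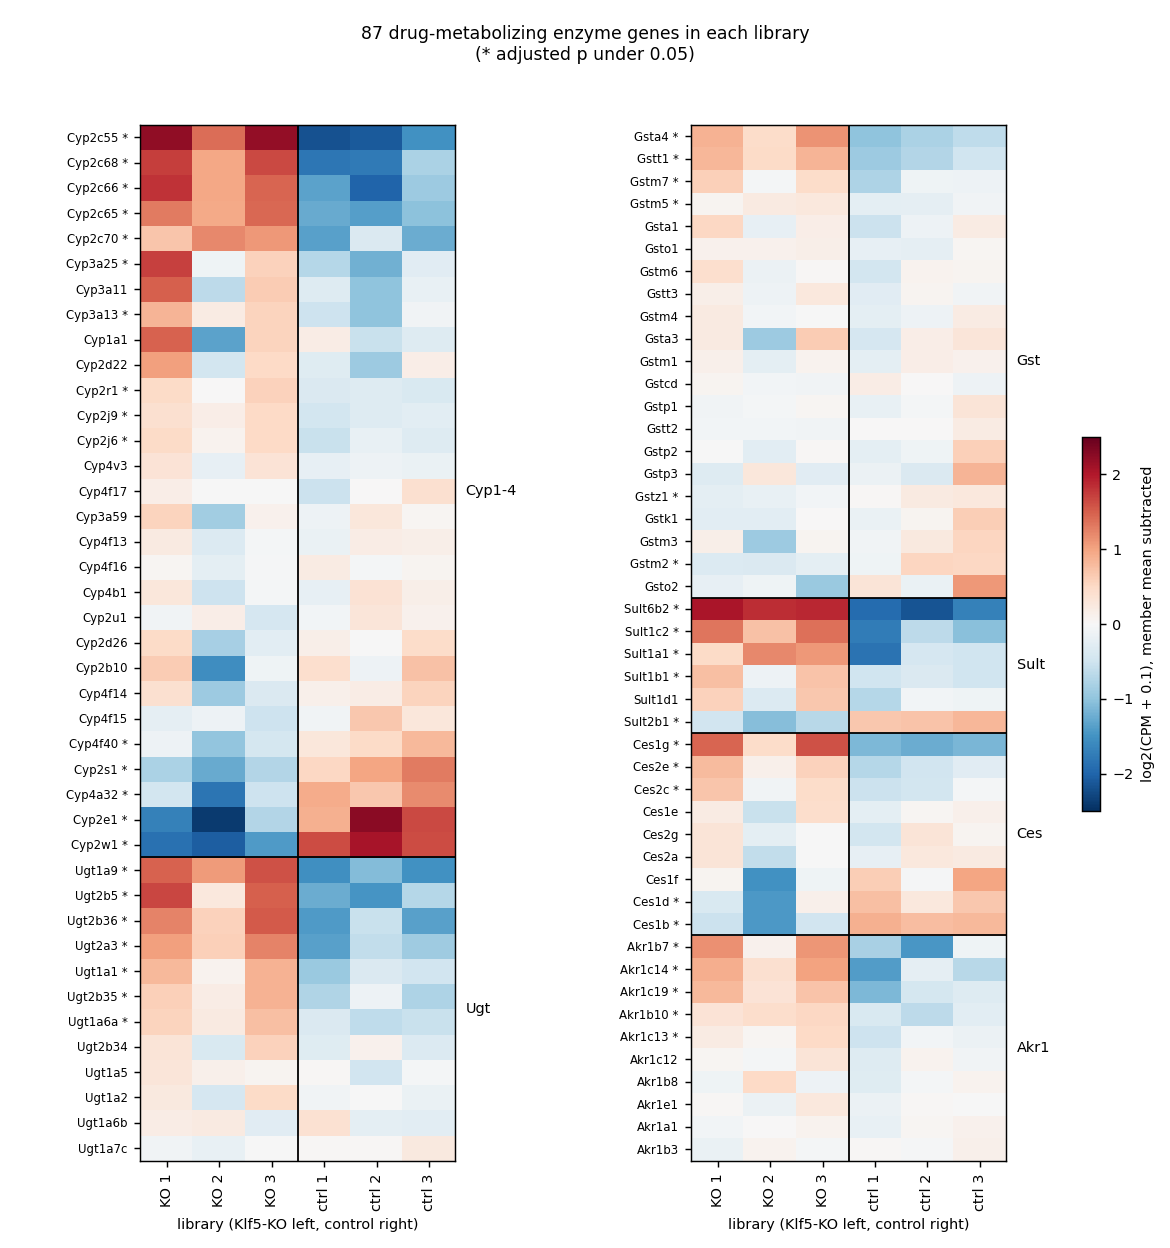
Level of the 87 enzyme genes in each library as log2(CPM + 0.1) minus the gene's mean over the 6 libraries (colour), with Klf5-KO libraries on the left and control libraries on the right of each panel; genes are sorted by fold change within a family, and an asterisk marks an adjusted p under 0.05. Replicate 2 of the Klf5-KO libraries is the palest of its group in most genes that were higher.

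Within the group labelled Klf5-KO, replicate 2 was the lowest of the 3 libraries in 29 of the 33 genes that were higher, in 9 of the 10 that were lower, and in the summed enterocyte markers. Without it 38 genes were higher and 8 lower, and without it and control replicate 3 the counts were 40 and 7. In that last fit 5 called genes moved by over 1.5 times, Cyp2c68 to a log2 fold change of 3.53, Ugt2b5 to 3.12, Akr1b7 to 2.26, Cyp3a25 to 2.21 and Cyp4a32 to -1.56, all still called. Over the 6 fits that each leave out a library, 27 to 38 genes were higher and 8 to 10 lower. The summed level of all 87 genes was 2833, 2236 and 2885 CPM in the Klf5-KO-labelled libraries, against 1833, 2107 and 2240.4 CPM in controls. In this sum replicate 2 lay inside the range of the controls.

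By family the counts were as follows. Of the 12 Ugt genes 7 were higher and none was lower, with a median log2 fold change of 1.08, and of the 6 Sult genes 4 were higher and 1 was lower, with a median of 1.39. Of the 10 Akr1 genes 5 were higher and none was lower (median 0.36). The 29 P450 genes moved both ways, 10 higher and 5 lower (median 0.05), as did the 9 Ces genes, 3 higher and 2 lower (median 0.03). Without the genes that passed through 1 group only, 9 P450 genes were higher and 3 lower, and 3 Ces genes were higher and 1 lower, Ces1d, whose call was lost in 4 of the 6 fits that leave out a library. Of the 21 Gst genes 4 were higher and 2 were lower (median -0.02). The share called was 58.3% of Ugt, 83.3% of Sult, 50% of Akr1 and 51.7% of P450 genes. It was 55.6% of Ces and 28.6% of Gst genes, beside 25.8% of all genes tested. These shares were not tested against each other.

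**Figure D2:**
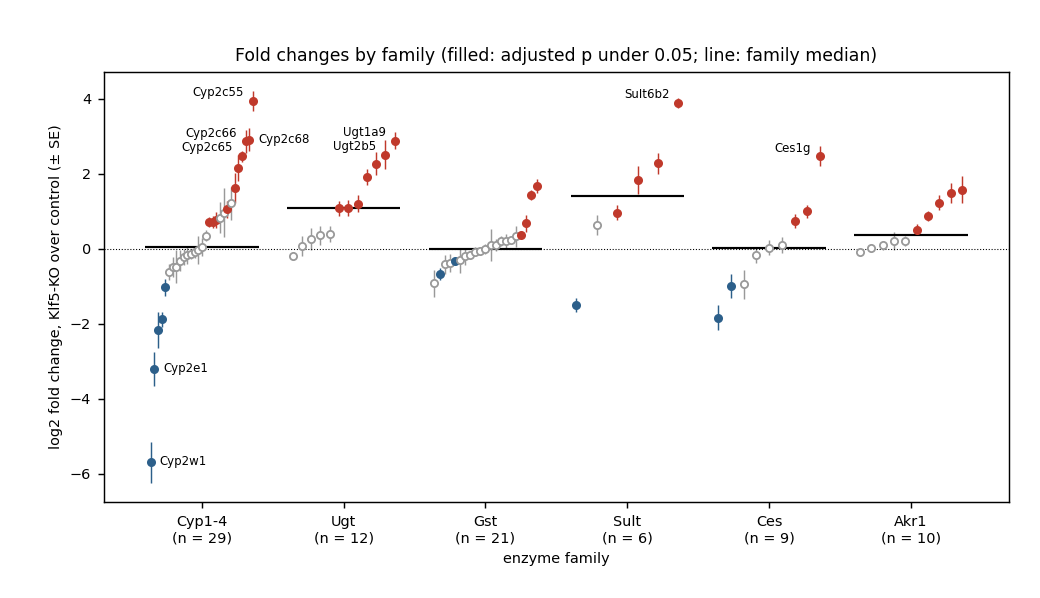
Log2 fold change of each gene, Klf5-KO over control, with its SE, by family; filled points have an adjusted p under 0.05 and the black line is the family median. The P450 genes span from Cyp2w1, nearly absent from the Klf5-KO libraries, to Cyp2c55 at 3.93, and no Ugt or Akr1 gene was called lower. Cyp2w1 reached 0.5 CPM in the controls only.

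Among the enzymes of the first step, all 5 Cyp2c genes were higher, Cyp2c70 having passed through the Klf5-KO group only. The Cyp2c enzymes of the mouse oxidise drugs and arachidonic acid. Cyp2c55 had 53.4, 30.0 and 52.4 CPM in the Klf5-KO-labelled libraries, against 2.43, 2.59 and 3.91 CPM in controls, a log2 fold change of 3.93 (SE 0.26, adjusted p = 2.1e-05, edgeR). Cyp2c65 had 71.3, 55.7 and 78.7 CPM in the Klf5-KO-labelled libraries, against 12.1, 11 and 14.1 CPM in controls (2.47, SE 0.15, adjusted p = 1.2e-05, edgeR). In both genes the lowest Klf5-KO-labelled library lay well above the highest control. Cyp2c66 had 20.7, 11.5 and 16.1 CPM in the Klf5-KO-labelled libraries and 2.25, 1.39 and 3.05 CPM in controls (2.86, SE 0.30). Cyp2c68 had 34.5, 20.3 and 32.7 CPM in the Klf5-KO-labelled libraries and 2.87, 2.96 and 5.96 CPM in controls (2.90, SE 0.31). Again no control reached the lowest Klf5-KO-labelled library. Cyp2c70, which in the mouse makes muricholic bile acids, was scarce at 1.4, 2.02 and 1.86 CPM in the Klf5-KO-labelled libraries and 0.261, 0.622 and 0.290 CPM in controls (2.15, SE 0.35). Summed over the 5 genes the level was 119.6 to 182 CPM in the Klf5-KO-labelled libraries and 18.6 to 27.3 CPM in controls, out of a P450 sum of 343 to 576 CPM in the Klf5-KO-labelled libraries and 275 to 349.7 CPM in controls. Per kilobase of exon, Cyp2c65 was the most abundant P450 in the Klf5-KO-labelled libraries, at a level of 35.6 CPM per kb, and Cyp2c55 came next at 22.7. In controls the most abundant was Cyp4f14 at 13.9 CPM per kb, while Cyp2c65 stood at 6.44 and Cyp2c55 at 1.49.

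The 5 genes lie on chromosome 19 (mm10), from the start of Cyp2c55 at 39007019 to the end of Cyp2c70 at 40187333. Their exons are partly alike. Of the 50-base words in the exons of Cyp2c68, 43.3% also occur in another gene, with Cyp2c40 the gene that shares the most. The share is 20.6% for Cyp2c65 and 19.5% for Cyp2c66. It is 0.51% for Cyp2c55 and 0 for Cyp2c70. The 250 bases before each gene's start are shown here because the genes moved together, next to those of Sult6b2, the gene with the next largest rise after Cyp2c55, and of Cyp2e1, which fell. The sequences are those of RefSeq on GRCm38.p6, 5′ to 3′ on the gene's strand, and these genes were picked after their values were seen. Capitals mark matches, on either strand, to any of 7 motifs: CCCCNCCC (a Kruppel-like factor motif), CAAAGTCCA (a hepatocyte nuclear factor 4 motif), GTTAAT and ATTAA around any base (hepatocyte nuclear factor 1), AGGTCA repeated after any base (a direct repeat read by nuclear receptors), GCGTG (the aryl hydrocarbon receptor core), TGACNNNGC (the antioxidant response core) and TATAAA. No 2 matches overlap in these windows. The starts are those of RefSeq, and the windows of Cyp2c70, Sult6b2 and Cyp2e1 run into the gene as it was counted. The windows are chr19:39006769-39007018 (plus strand) for Cyp2c55, chr19:39060756-39061005 (plus) for Cyp2c65, chr19:39113648-39113897 (plus) for Cyp2c66, chr19:39741102-39741351 (minus) for Cyp2c68, chr19:40187287-40187536 (minus) for Cyp2c70, chr6:142804467-142804716 (minus) for Sult6b2 and chr7:140763569-140763818 (plus) for Cyp2e1.
Cyp2c55: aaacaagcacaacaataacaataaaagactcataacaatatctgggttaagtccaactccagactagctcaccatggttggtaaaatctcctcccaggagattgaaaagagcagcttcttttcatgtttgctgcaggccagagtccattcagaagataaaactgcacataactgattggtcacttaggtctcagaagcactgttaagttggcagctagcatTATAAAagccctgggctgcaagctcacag
Cyp2c65: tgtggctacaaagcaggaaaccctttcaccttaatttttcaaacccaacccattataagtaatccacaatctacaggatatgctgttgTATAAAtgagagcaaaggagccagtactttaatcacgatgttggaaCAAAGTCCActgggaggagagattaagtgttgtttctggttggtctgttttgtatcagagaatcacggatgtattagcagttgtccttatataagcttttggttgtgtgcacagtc
Cyp2c66: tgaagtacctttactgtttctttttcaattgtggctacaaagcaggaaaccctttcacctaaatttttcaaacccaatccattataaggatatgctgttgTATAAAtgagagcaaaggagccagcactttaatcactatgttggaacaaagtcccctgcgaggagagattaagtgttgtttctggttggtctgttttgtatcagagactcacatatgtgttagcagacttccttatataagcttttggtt
Cyp2c68: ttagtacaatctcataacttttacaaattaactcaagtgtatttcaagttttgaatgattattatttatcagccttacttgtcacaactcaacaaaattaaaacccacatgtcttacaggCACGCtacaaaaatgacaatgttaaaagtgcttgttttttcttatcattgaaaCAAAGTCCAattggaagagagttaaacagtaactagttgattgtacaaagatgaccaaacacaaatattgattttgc
Cyp2c70: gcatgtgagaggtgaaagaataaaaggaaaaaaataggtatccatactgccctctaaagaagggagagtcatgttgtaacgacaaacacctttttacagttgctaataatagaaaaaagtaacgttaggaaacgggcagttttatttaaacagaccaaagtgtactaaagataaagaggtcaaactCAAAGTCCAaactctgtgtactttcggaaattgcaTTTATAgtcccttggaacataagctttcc
Sult6b2: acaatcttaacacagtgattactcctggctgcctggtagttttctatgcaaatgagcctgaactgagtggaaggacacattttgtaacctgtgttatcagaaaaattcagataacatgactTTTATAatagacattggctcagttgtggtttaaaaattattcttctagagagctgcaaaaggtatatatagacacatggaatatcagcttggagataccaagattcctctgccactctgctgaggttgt
Cyp2e1: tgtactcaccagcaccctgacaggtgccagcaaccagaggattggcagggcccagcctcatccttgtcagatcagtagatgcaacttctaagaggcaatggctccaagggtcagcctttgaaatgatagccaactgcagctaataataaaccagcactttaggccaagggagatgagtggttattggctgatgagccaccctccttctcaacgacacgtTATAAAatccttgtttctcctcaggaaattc

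The windows of Cyp2c65, Cyp2c68 and Cyp2c70 each hold CAAAGTCCA on the gene's strand. The aligned letters in Cyp2c66 differ by A9C, counted from the first letter of the motif, and the windows of Cyp2c65 and Cyp2c66 are 74.6% identical. The other pairs of the 5 are 48.0 to 54.9% identical. Among the 78 enzyme genes with a promoter in the table, 4 held this motif (5.13%), Cyp3a11 being the other, beside 0.384% of all 32851 promoters of the same length. The Kruppel-like motif was in 17.9% of the 78 windows, and in 30.8% of all promoters. It was in 3 of the 32 windows of genes that were higher (9.38%) and 2 of the 9 of genes that were lower (22.2%). Of the 37 windows of genes that were not called, 9 held it (24.3%). Its fixed letters are all C or G, and the share of these bases ran from 29.6% for Cyp2c68 to 65.2% for Sult2b1. The part that base content has in the shares of this motif was not tested. TATAAA was in 16.7% of the 78 windows and 12.4% of all, GCGTG in 19.2% and 28.2%, and TGACNNNGC in 2.56% and 10.2%. Neither the hepatocyte nuclear factor 1 motif nor the direct repeat was in any of the 78 windows (0.0609% and 0.0335% of all promoters). These are matches of letters in short windows and do not show binding.

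**Figure D3:**
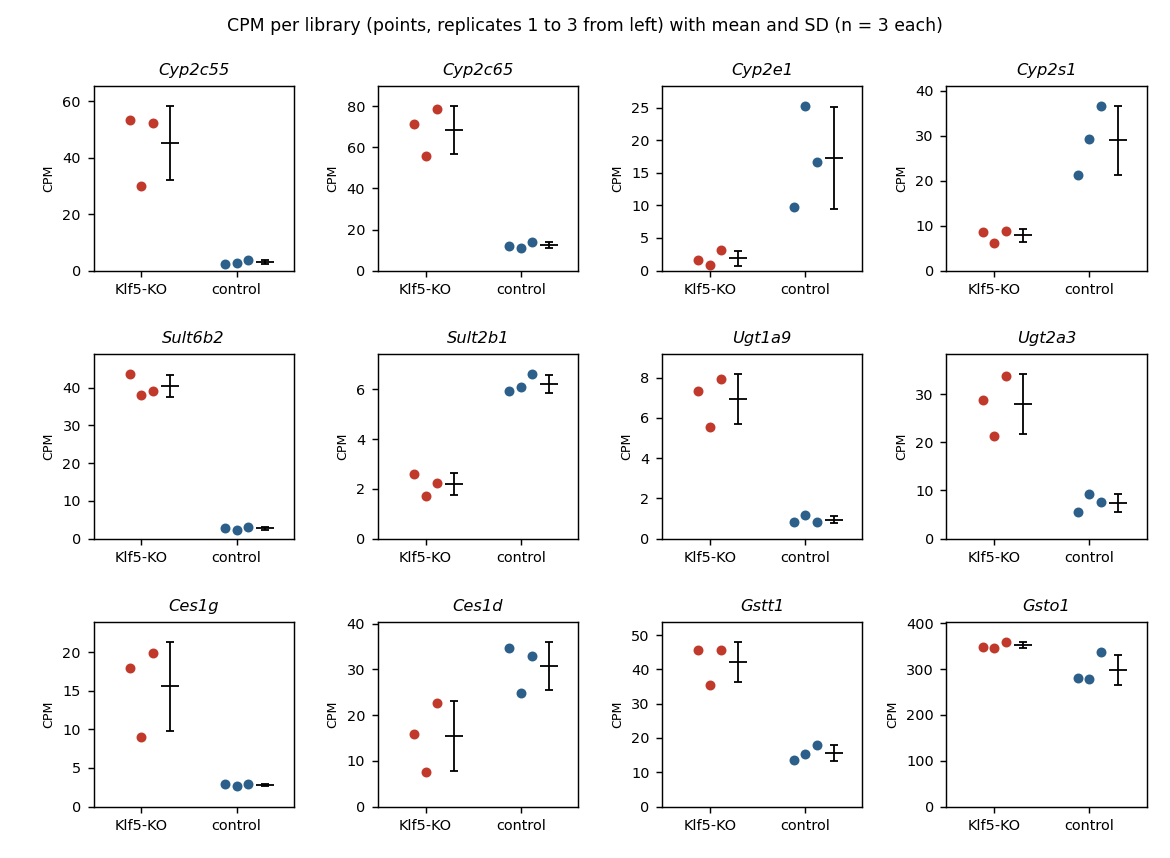
Level of 12 enzyme genes in CPM on linear axes from 0, Klf5-KO libraries on the left and control libraries on the right (points, replicates 1 to 3 from the left), with mean and SD (n = 3 each) beside them. Cyp2c55, Cyp2c65, Sult6b2, Ugt1a9, Ugt2a3, Ces1g and Gstt1 lie higher in every Klf5-KO library, Cyp2e1, Cyp2s1, Sult2b1 and Ces1d lie lower, and Gsto1 was not called.

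Of the 4 Cyp3a genes, broad drug oxidases related to human CYP3A4, 2 were higher. Cyp3a13 had 64.0, 40.9 and 52.7 CPM in the Klf5-KO-labelled libraries, against 24.8, 17.6 and 33.4 CPM in controls (log2 fold change 1.06, SE 0.23, adjusted p = 0.0089, edgeR). Cyp3a25 had 39.0, 11.1 and 17.7 CPM in the Klf5-KO-labelled libraries, against 7.21, 5.11 and 9.80 CPM in controls (1.62, SE 0.41, adjusted p = 0.019, edgeR). Its rise leaned on replicate 1, without which the value was 0.97 with an adjusted p of 0.0564, and without control replicate 2 the adjusted p was 0.0719. With robust dispersion the call was also lost (adjusted p = 0.104, edgeR). Of the 50-base words of Cyp3a25, 26.8% occur in another gene, with Cyp3a59, which was not called, sharing the most. Cyp3a11, with 37.5, 8.36 and 20.6 CPM in the Klf5-KO-labelled libraries and 10.5, 6.55 and 11.6 CPM in controls, overlapped between the groups and was not called (1.21, SE 0.44, adjusted p = 0.071, edgeR). It was called without Klf5-KO replicate 2 and with no low-count filter, and its adjusted p ran from 0.00724 to 0.303 over the 6 fits that leave out a library. Both Cyp2j genes, relatives of arachidonic acid epoxygenases, were higher. Cyp2j6 averaged 49.7 ± 7.42 CPM in the Klf5-KO-labelled libraries and 30.3 ± 3.91 CPM in controls (SD, n = 3 each; log2 fold change 0.71, SE 0.13), and Cyp2j9 rose by 0.72 (SE 0.16). Cyp2r1, a 25-hydroxylase of vitamin D, was also called higher (0.77, SE 0.22, adjusted p = 0.029, edgeR), and the call was lost without Klf5-KO replicate 1 or 3 or without control replicate 1 or 2, with adjusted p-values of 0.0638 to 0.110.

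The P450 genes that were lower were Cyp2e1, Cyp2s1, Cyp4f40, Cyp4a32 and Cyp2w1, of which Cyp4a32 and Cyp2w1 passed through the controls only. Cyp2e1, which oxidises ethanol and acetaminophen, had 1.56, 0.919 and 3.09 CPM in the Klf5-KO-labelled libraries, against 9.81, 25.3 and 16.7 CPM in controls (log2 fold change -3.21, SE 0.45, adjusted p = 0.0011, edgeR). Cyp2s1, a P450 of epithelia outside the liver, had 8.49, 6.12 and 8.88 CPM in the Klf5-KO-labelled libraries, against 21.1, 29.4 and 36.5 CPM in controls (-1.89, SE 0.21, adjusted p = 0.00032, edgeR). In both genes every Klf5-KO-labelled library lay below every control, and the controls themselves spread widely. Cyp2w1, a P450 known in humans from colorectal tumours, was nearly absent from the Klf5-KO-labelled libraries, with 1, 0 and 4 counts, against 87, 127 and 74 counts in controls. Its summed counts, scaled to library size, had a ratio of 0.0179, Klf5-KO over control (95% interval 0.00578 to 0.0423, counting error only). Without Klf5-KO replicate 3, which held 4 of the 5 counts, the ratio was 0.00554 (95% interval 0.00014 to 0.0311). Cyp4a32, a relative of fatty acid omega-hydroxylases, was low throughout at 0.196 ± 0.129 CPM in the Klf5-KO-labelled libraries and 0.896 ± 0.178 CPM in controls. Of its 50-base words 43.8% occur in another gene, with Cyp4a10 the gene that shares the most. Cyp4f40 fell by 1.03 on the log2 scale (SE 0.23) and was the called member among 6 genes of the Cyp4f group, whose enzymes omega-hydroxylate fatty acids and leukotrienes. Cyp4f14, the most abundant of that group per kilobase, had 35.8, 14.5 and 20.9 CPM in the Klf5-KO-labelled libraries and 29.7, 30.7 and 39.8 CPM in controls. It was not called (-0.49, SE 0.28), but was without Klf5-KO replicate 1 and with no low-count filter. Its adjusted p (edgeR) ran from 0.0183 to 0.545 over the 6 fits that leave out a library.

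The textbook reporters of 2 xenobiotic sensors were not called with all libraries. Cyp1a1, the classical target of the aryl hydrocarbon receptor, had 1.69, 0.156 and 0.856 CPM in the Klf5-KO-labelled libraries and 0.632, 0.337 and 0.420 CPM in controls (log2 fold change 0.96, SE 0.64, adjusted p = 0.30, edgeR). It was called higher without Klf5-KO replicate 2, and its adjusted p ran from 0.0359 to 0.899 over the 6 fits that leave out a library. Cyp2b10, the classical target of the constitutive androstane receptor, had 8.95, 1.88 and 5.33 CPM in the Klf5-KO-labelled libraries and 7.72, 5.25 and 9.65 CPM in controls (-0.48, SE 0.45, adjusted p = 0.47, edgeR). In both genes the Klf5-KO-labelled libraries spread around all or nearly all controls, with replicate 1 highest and replicate 2 lowest. Besides these and Cyp3a11, the P450 genes that were not called ran from -0.61 for Cyp4f15 to 0.83 for Cyp2d22 on the log2 scale. Both were called with no low-count filter, and Cyp4f15 also with DESeq2, with sex as a covariate and without control replicate 1.

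Of the 5 Ces1 genes, which lie together on chromosome 8, 1 was higher and 2 were lower, of which Ces1b passed through the controls only. Ces1g, an esterase of lipid metabolism, had 17.9, 9.0 and 19.9 CPM in the Klf5-KO-labelled libraries, against 2.91, 2.70 and 2.87 CPM in controls (log2 fold change 2.46, SE 0.27, adjusted p = 0.00028, edgeR). Ces1d of the same cluster, a triacylglycerol hydrolase, had 16, 7.59 and 22.7 CPM in the Klf5-KO-labelled libraries, against 34.7, 24.8 and 32.9 CPM in controls (-1.0, SE 0.32, adjusted p = 0.045, edgeR). The controls of Ces1g were nearly equal, while the lowest control of Ces1d lay close to the highest Klf5-KO-labelled library. The call of Ces1d was lost without Klf5-KO replicate 1 or any control replicate, with adjusted p-values of 0.0599 to 0.120. Ces1b was also lower, at 0.312 ± 0.136 CPM in the Klf5-KO-labelled libraries and 1.13 ± 0.0480 CPM in controls (-1.84, SE 0.34), and Ces1e and Ces1f were not called. Among the 4 genes of the Ces2 group, the main carboxylesterases of the intestine and known for activating ester prodrugs, Ces2e was higher with 124, 78.3 and 107 CPM in the Klf5-KO-labelled libraries, against 44.2, 51.4 and 59.4 CPM in controls (1.00, SE 0.17, adjusted p = 0.0028, edgeR). Ces2c had 38.7, 22.6 and 32.8 CPM in the Klf5-KO-labelled libraries and 16.3, 17.2 and 22.9 CPM in controls (0.74, SE 0.20, adjusted p = 0.024, edgeR). Its groups overlap by a small margin, 36.1% of its 50-base words occur in another gene, and the call was lost without Klf5-KO replicate 1 or 3 or control replicate 1 or 2 (adjusted p 0.0688 to 0.0968). Ces2a and Ces2g were not called, at -0.16 and 0.03.

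The aldo-keto reductases, which reduce aldehydes and ketones of drugs and steroids, had 5 genes higher and none lower. Akr1c14, a hydroxysteroid dehydrogenase, had 37.8, 26.5 and 40.6 CPM in the Klf5-KO-labelled libraries, against 7.60, 17.4 and 12.5 CPM in controls (log2 fold change 1.49, SE 0.27, adjusted p = 0.0040, edgeR). Akr1c19 had 33.8, 24.5 and 31.7 CPM in the Klf5-KO-labelled libraries, against 8.80, 14.3 and 15.5 CPM in controls (1.22, SE 0.20, adjusted p = 0.0027, edgeR). Akr1b10 was even within each group, at 14.5, 15.6 and 16.5 CPM in the Klf5-KO-labelled libraries and 8.84, 7.24 and 9.52 CPM in controls (0.87, SE 0.13). The groups of these 3 genes did not overlap. Akr1b7 was higher by 1.57 (SE 0.36, adjusted p = 0.012, edgeR), with an adjusted p of 0.051 without Klf5-KO replicate 1. Akr1c13 was higher by 0.50 (SE 0.15, adjusted p = 0.032, edgeR), a call lost without Klf5-KO replicate 1 or 3 or control replicate 1 (adjusted p 0.0727 to 0.119). With sex as a covariate this call was also lost (adjusted p = 0.051, edgeR). Of the 50-base words of Akr1c13, 24.2% occur in another gene, with Akr1c12, which was not called, sharing the most. The abundant Akr1a1, a general aldehyde reductase, had 316, 334 and 351 CPM in the Klf5-KO-labelled libraries and 292, 340.3 and 356 CPM in controls (0.02, SE 0.10). Akr1b3, the mouse aldose reductase, averaged 44.0 ± 3.73 CPM in the Klf5-KO-labelled libraries and 46.7 ± 2.65 CPM in controls (-0.08, SE 0.09). Neither was called.

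Among the conjugating enzymes, the Ugt genes attach glucuronic acid. Of the 5 genes of the Ugt2 group, which act on steroids, bile acids and drugs, 4 were higher. Ugt2a3 had 28.9, 21.4 and 33.9 CPM in the Klf5-KO-labelled libraries, against 5.47, 9.26 and 7.60 CPM in controls (log2 fold change 1.91, SE 0.22, adjusted p = 0.00034, edgeR). Ugt2b36 had 10.5, 6.6 and 12.9 CPM in the Klf5-KO-labelled libraries, against 1.59, 2.94 and 1.66 CPM in controls (2.27, SE 0.30, adjusted p = 0.00086, edgeR). In both, replicate 2 was the lowest of the Klf5-KO-labelled libraries and still more than 2-fold above the highest control. Ugt2b5 rose by 2.51 (SE 0.39), although 41.7% of its 50-base words occur in another gene, with Ugt2b38 the gene that shares the most. Ugt2b35 rose by 1.09 (SE 0.21). Ugt2b34, the most abundant Ugt per kilobase of exon, shared exons included, had 179.9, 111 and 213 CPM in the Klf5-KO-labelled libraries and 116, 154 and 113 CPM in controls (0.39, SE 0.22, adjusted p = 0.21, edgeR). Without Klf5-KO replicate 2 it was called, at 0.64 with an adjusted p of 0.0208.

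The Ugt1a genes share their last exons and differ in the first, so 50.3 to 60.6% of their exonic bases belong to several of them, and the values rest on reads of the first exons if shared reads were left uncounted. Of 7 genes 3 were higher. Ugt1a9 had 7.36, 5.55 and 7.96 CPM in the Klf5-KO-labelled libraries, against 0.825, 1.17 and 0.839 CPM in controls (log2 fold change 2.88, SE 0.22, adjusted p = 5.1e-05, edgeR). Ugt1a1, the enzyme that conjugates bilirubin, had 41.1, 25 and 43.1 CPM in the Klf5-KO-labelled libraries, against 12.2, 18.2 and 16.9 CPM in controls (1.2, SE 0.22, adjusted p = 0.0037, edgeR). Ugt1a6a, an enzyme for small phenols, rose by 1.08 (SE 0.20). By contrast Ugt1a7c had 25.8, 24.0 and 27.0 CPM in the Klf5-KO-labelled libraries and 27.9, 27.7 and 32.2 CPM in controls, and was not called (-0.19, SE 0.10). Ugt1a9 was thus above all controls, and Ugt1a7c below them without a call, in each Klf5-KO-labelled library. The difference between the 2 changes was not tested.

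Of the sulfotransferases, which attach sulfate, 4 were higher and 1 was lower. Sult6b2, whose promoter is printed above, had 43.8, 38.2 and 39.3 CPM in the Klf5-KO-labelled libraries, against 2.73, 2.31 and 3.20 CPM in controls (log2 fold change 3.88, SE 0.14, adjusted p = 1.3e-06, edgeR). Its 3 Klf5-KO-labelled libraries were close together. Sult1c2 had 16, 10.5 and 16.4 CPM in the Klf5-KO-labelled libraries, against 1.81, 3.97 and 3.02 CPM in controls (2.28, SE 0.28, adjusted p = 0.00055, edgeR). Sult1a1, the main enzyme for phenols, had 3.30, 5.45 and 5.07 CPM in the Klf5-KO-labelled libraries, against 0.577, 1.71 and 1.61 CPM in controls (1.83, SE 0.37, adjusted p = 0.0071, edgeR). The groups did not overlap in these 3 genes. Sult1b1, which sulfates phenols and thyroid hormones, rose by 0.96 (SE 0.20), and its neighbour Sult1d1, which sulfates catecholamines, stood at 0.63 (SE 0.26, adjusted p = 0.10, edgeR) and was called without Klf5-KO replicate 2 (0.91, adjusted p = 0.0123, edgeR). Sult2b1, the cholesterol sulfotransferase, went the other way with 2.61, 1.71 and 2.22 CPM in the Klf5-KO-labelled libraries, against 5.95, 6.09 and 6.63 CPM in controls (-1.51, SE 0.19, adjusted p = 0.00062, edgeR).

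The glutathione S-transferases were the family with the share called nearest to that of all genes, 28.6% beside 25.8%. Gstt1, which acts on small halogenated compounds, had 45.5, 35.5 and 45.8 CPM in the Klf5-KO-labelled libraries, against 13.6, 15.2 and 18.0 CPM in controls (log2 fold change 1.44, SE 0.14, adjusted p = 0.00014, edgeR). Gsta4, the enzyme for the lipid peroxidation product 4-hydroxynonenal, had 12, 9.02 and 14.3 CPM in the Klf5-KO-labelled libraries, against 3.20, 3.75 and 4.16 CPM in controls (1.67, SE 0.19, adjusted p = 0.00036, edgeR). The groups of both were well apart. The other 4 calls were small, with Gstm7 at 0.68, Gstm5 at 0.38, Gstz1 at -0.34 and Gstm2 at -0.67, and each was lost in at least 3 of the 6 fits that leave out a library. Gsto1, a thiol transferase and the most abundant of the 87 genes per kilobase (179 CPM per kb in the Klf5-KO-labelled libraries and 152 CPM per kb in controls), had 349, 347 and 360.2 CPM in the Klf5-KO-labelled libraries and 279.6, 279 and 336 CPM in controls. It was not called (0.24, SE 0.10, adjusted p = 0.11, edgeR), but was without control replicate 3 (0.33, adjusted p = 0.0171, edgeR). Gstp1, an enzyme for many electrophiles, had 95.9, 98.6 and 106 CPM in the Klf5-KO-labelled libraries and 90.4, 98.9 and 128 CPM in controls (-0.08, SE 0.13), and Gstm1 averaged 56.7 ± 7.59 CPM in the Klf5-KO-labelled libraries and 57.5 ± 8.37 CPM in controls (-0.02, SE 0.13). The 15 Gst genes that were not called ran from -0.92 for Gsto2 to 0.33 for Gsta1.

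By position, the 4 Cyp2c genes on chromosome 19 that reached 0.5 CPM in both groups were higher, as was Cyp2c70. On chromosome 5, between the start of Ugt2b34 at 86889767 and the end of Sult1d1 at 87569027, 5 of 7 genes were higher and the remaining pair, Ugt2b34 and Sult1d1, sits at the 2 ends. On chromosome 13, 3 of 4 Akr1c genes were higher, and the call of Akr1c13 was lost in 3 of the 6 fits that leave out a library. The Ces1 group on chromosome 8 held called genes of both directions, Ces1g higher and Ces1b and Ces1d lower. Ces1b passed through the controls only, and the call of Ces1d was lost in 4 of the 6 fits that leave out a library. In the Gstm group on chromosome 3, 2 of 7 genes were higher and 1 lower, each call lost in at least 3 of these 6 fits. Of the 6 Cyp4f genes on chromosome 17 none was higher and 1 was lower. Over all genes tested, 13.3% were higher and 12.5% lower, and the clusters were not tested against these shares.

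**Figure D4:**
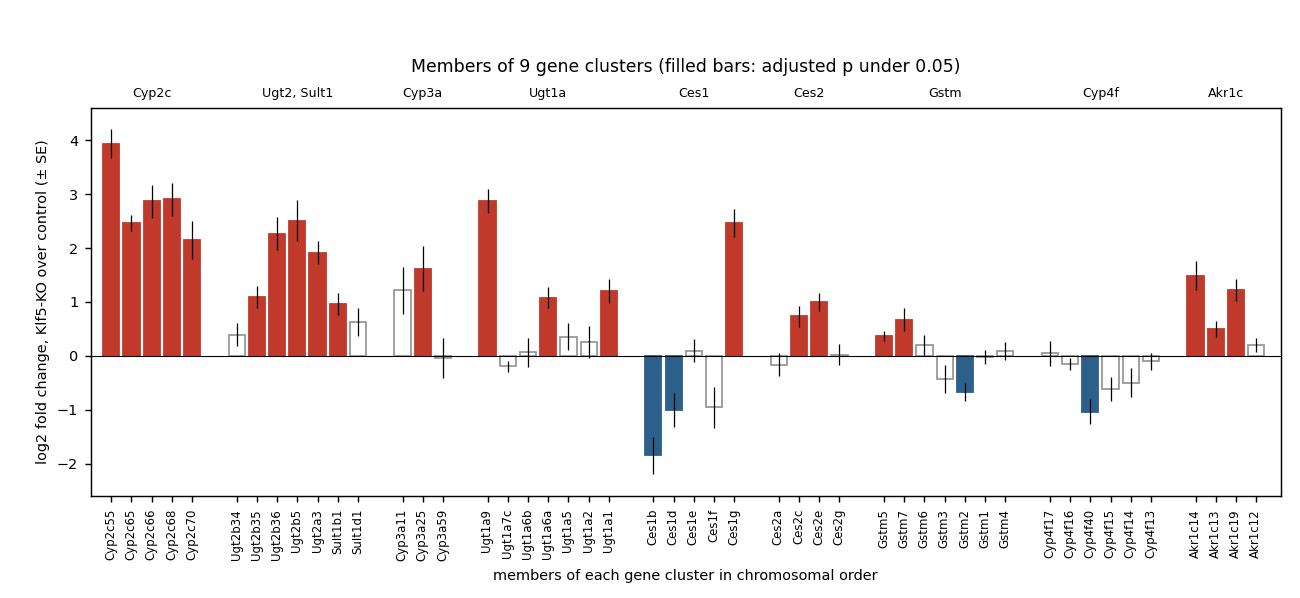
Log2 fold change, Klf5-KO over control, with its SE, of the enzyme genes in 9 gene clusters, each in chromosomal order; filled bars have an adjusted p under 0.05. The Cyp2c bars run from 2.15 for Cyp2c70 to 3.93 for Cyp2c55, and the Ces1 bars run from -1.84 for Ces1b to 2.46 for Ces1g. Cyp2c70 reached 0.5 CPM in the Klf5-KO group only, and Ces1b in the controls only.

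Of 21 sensors and regulators that control these enzymes, 3 were higher and 4 lower, with a median log2 fold change of 0.05. The share called, 33.3%, was near the 25.8% of all genes tested. Nr1h4, the bile acid receptor FXR, had 59.8, 65.3 and 52.6 CPM in the Klf5-KO-labelled libraries, against 18.4, 14.8 and 21.0 CPM in controls (log2 fold change 1.71, SE 0.14, adjusted p = 6.0e-05, edgeR). Ahr, the aryl hydrocarbon receptor, rose by 0.45 (SE 0.09) and its target Tiparp by 0.26 (SE 0.08). Hnf4a, a nuclear receptor that drives gut and liver enzyme genes, had 454, 379 and 492 CPM in the Klf5-KO-labelled libraries, against 796, 927 and 741 CPM in controls (-0.89, SE 0.13, adjusted p = 0.0015, edgeR). Rxra, the partner of many nuclear receptors, fell by 0.68 (SE 0.09), Cebpb by 0.72 (SE 0.09) and Cebpa by 0.58 (SE 0.07). Nr1i2, the pregnane X receptor that senses drugs, had 58.0, 56.9 and 59.4 CPM in the Klf5-KO-labelled libraries and 57.6, 58.0 and 65.2 CPM in controls (-0.05, SE 0.08), and its relative Nr1i3 stood at -0.76 (SE 0.30, adjusted p = 0.096, edgeR). Nfe2l2, the factor of the antioxidant response, stood at -0.03 (SE 0.10).

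P450s need electrons and haem, and the transferases need activated donors. Of 14 P450 partners and haem synthesis genes, 2 were higher and none was lower (14.3%, below the 25.8% of all genes). Pgrmc2, a haem-binding membrane protein, had 86.9, 86.8 and 88.7 CPM in the Klf5-KO-labelled libraries, against 43.4, 49.7 and 44.8 CPM in controls (log2 fold change 0.93, SE 0.08, adjusted p = 0.00010, edgeR), and the electron carrier Cyb5a rose by 0.30 (SE 0.08). The call of Cyb5a was lost in 4 of the 6 fits that leave out a library. Por, the reductase that feeds all these P450s, had 65.3, 61.4 and 59.5 CPM in the Klf5-KO-labelled libraries and 56.5, 72.1 and 60.5 CPM in controls (-0.02, SE 0.10). Of 29 genes of cofactor supply, 8 were higher and 3 lower (37.9% called, median -0.0021). Papss2, which makes the sulfate donor used by the Sult enzymes, had 93.5, 87.4 and 73.9 CPM in the Klf5-KO-labelled libraries, against 29.8, 18.2 and 32.2 CPM in controls (1.67, SE 0.20, adjusted p = 0.00042, edgeR). Me1, a source of NADPH, rose by 1.63 (SE 0.13), and Slc3a2, the heavy chain of the cystine exchanger, by 0.69 (SE 0.09). Ugdh, which makes the glucuronic acid donor used by the Ugt enzymes, stood at -0.0021 (SE 0.13).

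Of 33 further oxidation, reduction and hydrolysis genes that were tested, 6 were higher and 4 lower, a share of 30.3% near the 25.8% of all genes. Fmo5, a flavin monooxygenase, had 101, 45.7 and 83.0 CPM in the Klf5-KO-labelled libraries, against 14.7, 15.1 and 21.7 CPM in controls (log2 fold change 2.16, SE 0.27), and Bche, butyrylcholinesterase, rose by 1.11 (SE 0.14). Nqo1, the quinone reductase and a standard reporter of the antioxidant response, had 2.82, 2.20 and 2.82 CPM in the Klf5-KO-labelled libraries, against 8.81, 9.62 and 11.3 CPM in controls (-1.92, SE 0.17, adjusted p = 8.7e-05, edgeR). Aldh1b1, a mitochondrial aldehyde dehydrogenase of stem and progenitor cells, fell by 1.19 (SE 0.14). Of 13 further conjugation genes tested, 4 were higher and 4 lower (61.5% called). Among them the microsomal transferase Mgst1 rose by 0.76 (SE 0.09), Anpep, also an enterocyte marker, by 1.05 (SE 0.16), and Ggt6, a gamma-glutamyltransferase, fell by 1.85 (SE 0.12).

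Of 25 transporters of drugs and conjugates, 10 were higher and 5 lower, with a median of 0.29. The share called was 60%, beside 25.8% of all genes tested. Abcc2, the apical pump for glucuronides and glutathione conjugates, had 276, 141 and 166 CPM in the Klf5-KO-labelled libraries, against 24.7, 54.6 and 65.8 CPM in controls (log2 fold change 2.01, SE 0.35, adjusted p = 0.0033, edgeR). Abcc5 had 88.4, 69.0 and 75.7 CPM in the Klf5-KO-labelled libraries, against 23.2, 29.3 and 27.1 CPM in controls (1.55, SE 0.12, adjusted p = 5.4e-05, edgeR). Both pumps were higher in each Klf5-KO-labelled library than in any control. The prostaglandin transporter Slco2a1 rose by 1.25 (SE 0.15), and the ileal bile acid transporter Slc10a2, scarce here, by 2.10 (SE 0.29). Abcc3, the basolateral pump for glucuronides, was lower, with 54.0, 32.9 and 49.2 CPM in the Klf5-KO-labelled libraries and 74.4, 72.7 and 82.9 CPM in controls (-0.76, SE 0.16, adjusted p = 0.0092, edgeR).

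**Figure D5:**
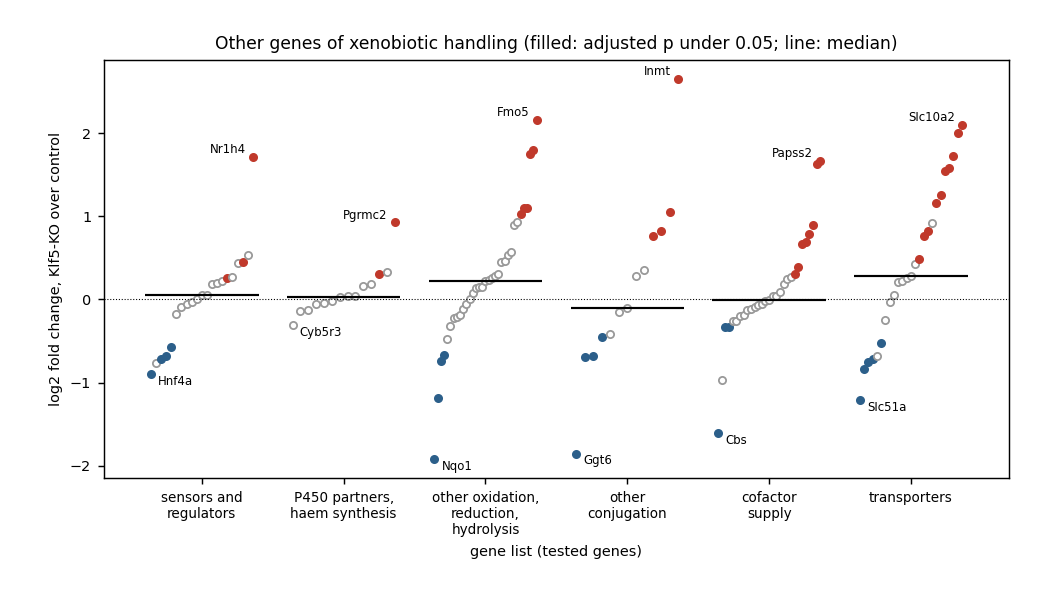
Log2 fold change, Klf5-KO over control, of the tested genes in 6 lists of the rest of the pathway; filled points have an adjusted p under 0.05 and the black line is the list's median. The named points are the highest and lowest of each list, such as Nr1h4 at 1.71 and Hnf4a at -0.89 among the sensors.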

How the data were processed

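RNA of sorted intestinal stem cells was measured in 6 libraries, grouped as Klf5-KO or control by their titles. The files the authors deposited hold raw counts, whole reads per gene. Per the submitters' processing notes, STAR 2.5.2a, mm10 and DESeq2 1.18.1 were used. Counting used featureCounts 1.4.3-p1, GENCODE vM16 and reverse strandedness, per the file headers, with no option for reads of several places or genes.

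Of 53379 gene IDs, 53274 had a symbol in GENCODE vM21. The test was the quasi-likelihood F test of edgeR 4.0.16 (R 4.3.3) with the group as its term, on the 19339 genes left by filterByExpr, after TMM scaling. Benjamini-Hochberg adjustment covered all tested genes, and 0.05 was the threshold. An SE is the log2 fold change over the square root of F. CPM uses TMM-scaled library sizes, except in the rule that chose the genes, which uses plain totals. At 61563625 to 77666540 counts a library, a gene with 0 counts may have up to 0.0386 to 0.0487 CPM (3 counts, counting error only). Libraries differed pairwise by more than sampling noise (chi-square over its degrees of freedom 40.3 or more). The script was tested on simulated counts.

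Genes were named by a rule: in each family the 2 of highest mean CPM and up to 6 called genes of smallest adjusted p, Cyp2c55, Cyp2e1, each called gene with an absolute log2 fold change of at least 2, and up to 3 called genes of each other list. Genes named beyond it were chosen after their values were seen, and the enzyme genes and all lists were chosen with earlier results of these data known. Alternatives were RLE and upper-quartile scaling, other filters, DESeq2 1.42.0, limma-voom (limma 3.58.1), robust dispersion, removal of ribosomal RNA-like and mitochondrial genes, sex read from Xist and Y-linked counts as a covariate (control replicate 1 and Klf5-KO replicate 3 are male), replicate number as a block, and leaving out each library. Leaving out control replicate 3 with Klf5-KO replicate 2, or genes that passed through 1 group only, was added after seeing the data.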

Additional observations from a re-analysis of the deposited data

How the results depend on the processing

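Of the 43 called enzyme genes, 33 kept their call in all 6 fits that leave out a library, 37 in all 10 other planned fits that tested them, and 33 in every fit. With a mean CPM of at least 5, 6 enzyme genes were lower in place of 10. The count of glutathione S-transferases lower was 1 with sex as a covariate, and that of carboxylesterases lower was 1 with a filter of CPM above 1, with DESeq2 and with robust dispersion. Leaving out each library in turn, or control replicate 3 together with Klf5-KO replicate 2, gave 1605 to 2740.0 genes higher and 1467 to 2664 lower over all genes. It gave 2 to 5 glutathione S-transferases higher and 0 to 2 lower, 1 to 2 carboxylesterases lower, 3 to 5 aldo-keto reductases higher, 2 to 5 sensors higher, 1 to 2 P450 partners higher and 0 to 1 lower, 4 to 11 other oxidation, reduction and hydrolysis enzymes higher, and 1 to 4 cofactor genes lower. Fold changes that turned round were near 0 and not called: on the log2 scale Akr1a1 ran from -0.062 to 0.081, Ces2g from -0.16 to 0.20 and Gstp1 from -0.18 to 0.10. The cause of these shifts was not tested.

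Replicate numbers did not pair the libraries: deviations of same-numbered libraries correlated at -0.0257, 0.0243 and -0.0404. With the replicate number as a block, 32 enzyme genes were higher and 11 lower, and 2286 of all genes were higher and 2088 lower, and Cyp3a11 and Ces1f were called. Depth limits genes under about 1 CPM, such as Cyp4a32, Cyp2w1, Ces1b and Cyp2c70.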

Other observations

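Enzyme genes below the level of 0.5 CPM are given here. Of the 93 genes with a fitting symbol under that level, 27 had no count in any library and 17 were tested, of which 5 were higher and 1 was lower. This is 35.3% of those tested, beside 25.8% of all genes, so it is not read as a result about these genes. They were named after their values were seen. Cyp2c38, of the chromosome 19 cluster, had 0.526, 0.514 and 0.677 CPM in the Klf5-KO-labelled libraries, against 0, 0.0130 and 0.161 CPM in controls (adjusted p = 0.011, edgeR). Cyp2c67, also of that cluster, had 0.453, 0.312 and 0.345 CPM in the Klf5-KO-labelled libraries and 0.0687, 0.0259 and 0.0807 CPM in controls (adjusted p = 0.0033, edgeR). Both lay above all controls. The other Cyp2c genes tested at this level, Cyp2c29 and Cyp2c23, overlapped between the groups and were not called (adjusted p = 0.61 for Cyp2c29 and 0.090 for Cyp2c23, edgeR). Cyp3a44, Cyp3a16 and Ugt1a8 were also higher, and Gstt4 was lower. Several of these values are at or near the level of 3 counts in the controls, so no fold is given.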
